A study of Mus musculus with 2 samples.

Results

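Cxcl1, Cxcl2, Cxcl3, Cxcl5, Ppbp and Pf4 encode CXC chemokines, small secreted proteins that act mainly on neutrophils or are released by platelets, and Cxcr2 encodes the receptor through which most of them attract neutrophils. CXCR2 is a G protein coupled receptor, and neutrophils follow rising ligand levels out of the bone marrow and into injured tissue, the liver included. Cxcl1, Cxcl2 and Cxcl3 are switched on quickly by NF-κB signals such as interleukin-1 or TNF, whereas the products of Ppbp and Pf4 are best known as contents of platelet granules. These 7 genes of 55450 were chosen by name, and each matched 1 symbol in both count matrices. They were followed across cell types in mouse liver tumours raised by hydrodynamic tail vein injection, in which plasmids pushed into the tail vein enter liver cells and a Sleeping Beauty transposase inserts the oncogenes into the genome. In the AKT1.MYC group, C57BL/6 mice received 10 µg of Akt1, 10 µg of human c-Myc and 5 µg of transposase plasmid. In the NRAS.MYC.ND group, C57BL/6 mice received 19 µg of human N-Ras, 1 µg of human c-Myc and 2 µg of transposase plasmid, so the groups differ in plasmid amounts as well as in oncogenes. At 14 weeks after injection the tumours of both groups were collected, dissociated, enriched for live cells and profiled by droplet 3′ single-cell RNA sequencing. The age, sex and number of the animals and the meaning of "ND" are not given in the sources used here. Each group is 1 library, so the values below carry intervals for counting error only and no test between the groups was possible.

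In the mouse, CXCR2 is a receptor on circulating neutrophils, and Cxcl1, Cxcl2, Cxcl3 and Cxcl5 are its inducible ligands, transcribed when interleukin-1, tumour necrosis factor or bacterial products activate NF-κB. Ppbp is the precursor of the platelet chemokine CXCL7, also a CXCR2 ligand. Pf4 is platelet factor 4, stored in the same granules, which lacks the ELR motif that CXCR2 ligands share and is also known from macrophages. Neutrophils brought in by these ligands are themselves a source of Cxcl2, and CXCR2 is removed from the surface after it binds a ligand.

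The 6 ligand genes lie in 1 cluster on mouse chromosome 5, all on the plus strand, within 147 kb of GRCm38. In order they are Cxcl5 (chr5:90759360-90761624), Ppbp (chr5:90768518-90770063), Pf4 (chr5:90772435-90773383), Cxcl3 (chr5:90786103-90789600), Cxcl1 (chr5:90891241-90893115) and Cxcl2 (chr5:90903871-90905938), by GENCODE vM21. Of the 7 protein-coding genes in that span, 1, Cxcl15, is not among those followed. Cxcr2 lies on the plus strand of chromosome 1 (chr1:74153989-74161246). RefSeq promoters (GRCm38.p6, 250 bases before to 50 after the start) were matched for 6 of the 7 genes, all but Cxcl5. Positions below are counted from the RefSeq start. In Cxcl1 and Cxcl2 that start lies after the GENCODE start given above (chr5:90891241 and chr5:90903871). Runs before the RefSeq start therefore lie nearer the GENCODE start in these 2 genes, above all in Cxcl2. The 250 bases before the start of Cxcl1 (chr5:90890995-90891244), Cxcl2 (chr5:90903649-90903898) and Cxcl3 (chr5:90785851-90786100) are shown. They were chosen because these 3 inducible ligands had a higher level in AKT1.MYC in both neutrophils and phagocytes. In neutrophils, though, Cxcl1 was only 2.48-fold the level of lymphocytes in AKT1.MYC and 1.54-fold in NRAS.MYC.ND. The 250 bases before the start of Pf4 (chr5:90772185-90772434) stand beside the others to compare the letters only, since Pf4 was also higher in AKT1.MYC in both classes. All are on the plus strand from 5′ to 3′.
Cxcl1: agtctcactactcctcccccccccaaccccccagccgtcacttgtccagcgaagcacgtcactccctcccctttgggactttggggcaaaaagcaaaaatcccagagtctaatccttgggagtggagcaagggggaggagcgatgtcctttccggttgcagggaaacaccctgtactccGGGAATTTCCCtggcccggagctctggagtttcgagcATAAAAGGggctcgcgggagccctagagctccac
Cxcl2: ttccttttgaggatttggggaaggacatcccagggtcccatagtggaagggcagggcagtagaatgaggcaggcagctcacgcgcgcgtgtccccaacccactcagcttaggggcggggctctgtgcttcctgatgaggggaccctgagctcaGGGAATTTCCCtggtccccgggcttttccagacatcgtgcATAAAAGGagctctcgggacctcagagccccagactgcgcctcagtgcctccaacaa
Cxcl3: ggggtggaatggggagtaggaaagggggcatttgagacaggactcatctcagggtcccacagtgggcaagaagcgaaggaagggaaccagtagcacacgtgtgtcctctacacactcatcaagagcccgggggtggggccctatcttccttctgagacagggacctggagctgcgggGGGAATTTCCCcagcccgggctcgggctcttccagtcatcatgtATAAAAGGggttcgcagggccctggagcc
Pf4: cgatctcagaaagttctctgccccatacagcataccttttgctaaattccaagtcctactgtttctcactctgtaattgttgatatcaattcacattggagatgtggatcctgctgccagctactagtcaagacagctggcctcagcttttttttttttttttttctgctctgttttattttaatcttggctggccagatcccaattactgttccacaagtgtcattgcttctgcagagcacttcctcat
The capitals mark runs of 8 or more bases that the promoters of Cxcl1, Cxcl2 and Cxcl3 all share on the same strand, a length chosen after the sequences had been read. There were 3 such runs, of 11, 8 and 13 bases, and they did not overlap. The first, GGGAATTTCCC, holds the letters of an NF-κB type site, and the second, ATAAAAGG, those of a TATA-type site. Counted from the start, with -1 the base before it, GGGAATTTCCC lay at -71 to -61 in Cxcl1, -97 to -87 in Cxcl2 and -73 to -63 in Cxcl3. ATAAAAGG lay at -34 to -27 in Cxcl1, -57 to -50 in Cxcl2 and -29 to -22 in Cxcl3. The third, CTCCAGACTCCAG, lay after the start and is not shown in place. In Ppbp, ATAAAAGG was found on the other strand at -87 to -80, and none of the runs was in the Pf4 or Cxcr2 window on either strand. On either strand, GGGAATTTCCC was in 14 of 32851 RefSeq promoters of the same length (0.0426%), ATAAAAGG in 577 (1.76%) and CTCCAGACTCCAG in 4 (0.0122%). Each of these counts includes Cxcl1, Cxcl2 and Cxcl3, the promoters from which the runs were taken. A match of letters describes the sequence and does not show that a factor binds there. In the transcripts, Cxcl2 and Cxcl3 shared a run of 157 bases, which lies 1849 and 3285 bases from their 3′ ends. The distances are for transcripts of 2066 and 3498 bases, about as long as the genes themselves (2068 and 3498 bases). They may differ in spliced transcripts. Only the longest run was located, so shorter shared runs nearer the 3′ ends, where 3′ reads fall, were not examined. No other pair of the 7 genes shared more than 23 bases.

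After filtering, 9398 AKT1.MYC cells with a median of 1987 UMIs and 5634 NRAS.MYC.ND cells with a median of 4240 UMIs were kept. A UMI, or unique molecular identifier, counts 1 captured RNA molecule. The libraries shared 17 cell barcodes. Cells were sorted into 13 classes by marker genes, which left 26.6% of AKT1.MYC and 10.6% of NRAS.MYC.ND cells ungated, with medians of 940 and 3182 UMIs. The ungated AKT1.MYC cells are therefore mostly shallow. Levels are CPM, the UMIs of a gene per 1000000 UMIs of all cells of a class, and ratios are log2 of AKT1.MYC over NRAS.MYC.ND with 95% intervals from counts. Ratios were formed for the 7 classes in which both libraries held 50 cells or more. Free RNA from broken cells enters every droplet, so the level in lymphocytes of the T, NK and innate lymphoid (ILC) gate of the same library is given as a background.

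The cells gated as neutrophils numbered 978 in AKT1.MYC (10.4% of kept cells, 9.80 to 11.0) and 261 in NRAS.MYC.ND (4.63%, 4.10 to 5.21), with similar medians of 1716.5 and 1648 UMIs. Among immune cells the share was 30.1% in AKT1.MYC against 7.46% in NRAS.MYC.ND. The 15 neutrophil markers together stood at 63491 CPM in AKT1.MYC neutrophils and 261999 CPM in NRAS.MYC.ND neutrophils. This lower marker level in AKT1.MYC leaves more of its CPM to other genes, and the median log2 ratio of all genes measured in neutrophils was 0.55, against 0.08 in mononuclear phagocytes (monocytes, macrophages and Kupffer cells). Neutrophil ratios are read against that 0.55. Mononuclear phagocytes numbered 2098 in AKT1.MYC against 1185 in NRAS.MYC.ND, with medians of 4379 and 8229 UMIs. Their own markers stood at 24807 and 29075 CPM, and neutrophil markers in them at 909.8 and 263 CPM.

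Cxcl2 and Cxcl3 were higher in AKT1.MYC neutrophils and mononuclear phagocytes and Pf4 in AKT1.MYC phagocytes, while Cxcr2 was lower in AKT1.MYC neutrophils. Cxcl1, Cxcl5 and Ppbp lay mainly in different classes in AKT1.MYC and NRAS.MYC.ND. Among neutrophils, 4 of the 6 members with at least 10 UMIs (Cxcl1, Cxcl2, Cxcl3 and Pf4) were at least 2-fold higher in AKT1.MYC and 0 at least 2-fold lower. Of all genes measured in neutrophils, 35.1% were as much higher and 8.54% as much lower, so high ratios are common in this class. In mononuclear phagocytes, 6 of 7 members (all but Cxcr2) were higher and 0 lower, where 15.8% and 9.76% of all genes were. The other classes gave 3 of 3 higher in T, NK and ILC cells (12.3% of all genes) and 3 of 3 in erythroid cells (19.6%). They gave 4 of 5 in endothelial cells (10.0%), 2 of 6 in fibroblasts and pericytes (9.88%) and 2 of 6 in the hepatocyte lineage (11.0%). The endothelial call of Ppbp rests on 9 and 8 UMIs, with a log2 ratio of 1.52 whose interval includes 0 (-0.03 to 3.09). No member was at least 2-fold lower in any of these 5 classes, where 12.8%, 17.8%, 12.5%, 16.3% and 13.8% of all genes were. Cxcl2 and Pf4 were among the members called in each of these 5 classes. Their AKT1.MYC levels there were close to or below that of T, NK and ILC cells, except in erythroid cells, where Cxcl2 stood 4.59-fold and Pf4 3.35-fold above it. The libraries also fell largely into separate clusters. Of the cells in neutrophil clusters, 1 cluster held 1083 AKT1.MYC and 2 NRAS.MYC.ND cells and another 2 AKT1.MYC and 306 NRAS.MYC.ND cells. The largest phagocyte cluster of AKT1.MYC held 2002 AKT1.MYC and 0 NRAS.MYC.ND cells, and that of NRAS.MYC.ND 0 AKT1.MYC and 1004 NRAS.MYC.ND cells. The ratios within a class therefore compare cells that cluster apart by library.

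**Figure D1:**
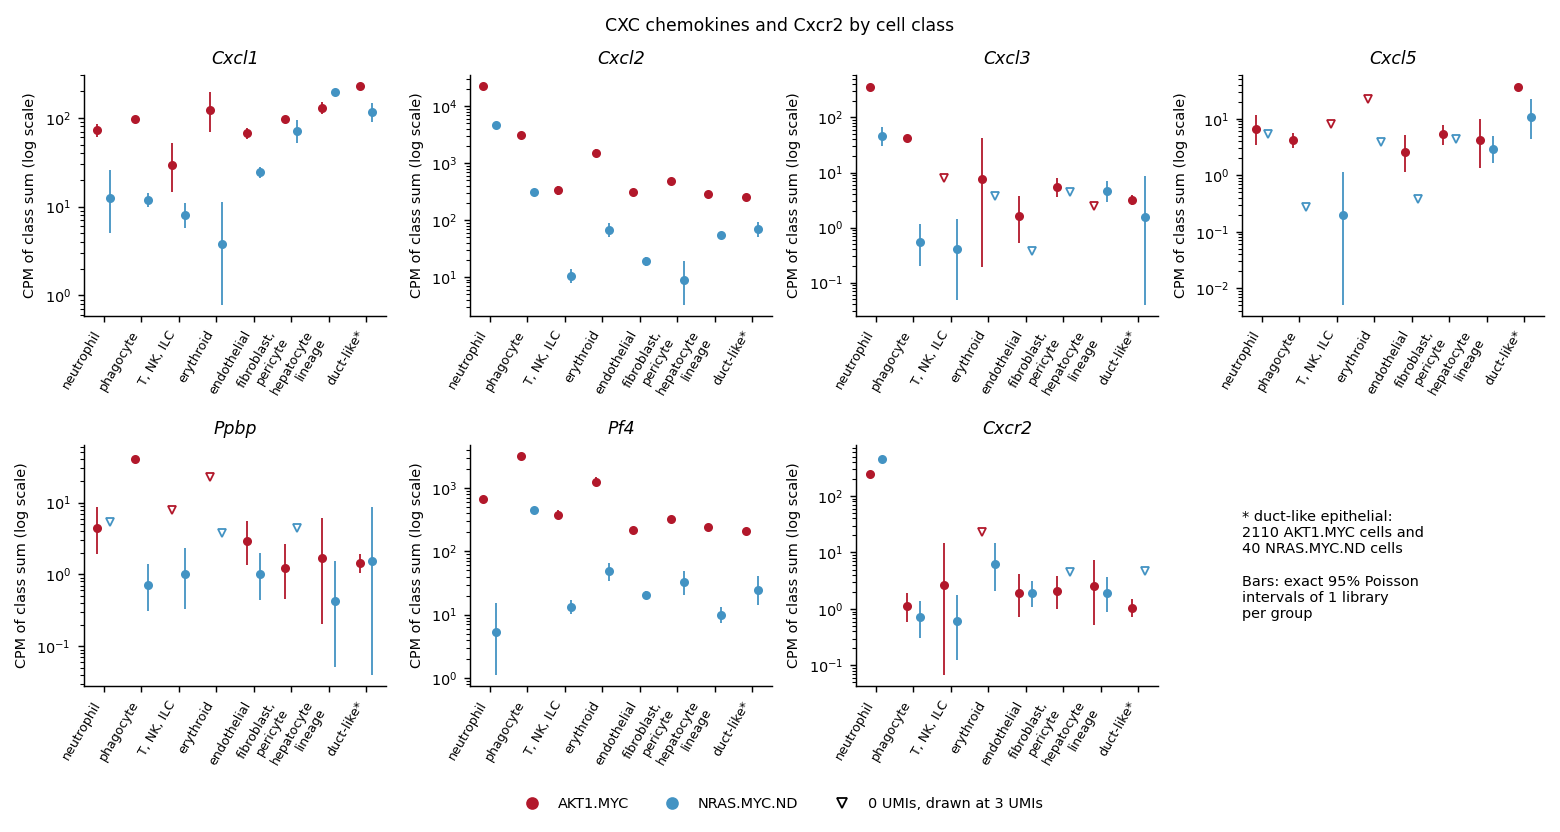
Level of each of the 7 genes by marker-gated class, in CPM on a log axis, with AKT1.MYC left of NRAS.MYC.ND. Points are 1 library each, bars are exact 95% Poisson intervals for counting error, and open triangles mark 0 UMIs drawn at the limit that 3 UMIs allow. Cxcl2 stands highest in neutrophils of both libraries (22798 and 4646 CPM), and Cxcr2 is high in neutrophils alone among the compared classes (245 and 452 CPM).

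Cxcl2, a CXCR2 ligand made by activated myeloid cells, was the most abundant of the 7 genes and was higher in AKT1.MYC. Over all kept cells it stood at 1701 CPM in AKT1.MYC and 204 CPM in NRAS.MYC.ND, a log2 ratio of 3.06 (3.03 to 3.10). In neutrophils it reached 22798 CPM (40916 UMIs) in AKT1.MYC and 4646 CPM (2620 UMIs) in NRAS.MYC.ND, a log2 ratio of 2.29 (2.24 to 2.35). In mononuclear phagocytes it stood at 3066 CPM (35499 UMIs) and 306 CPM (3422 UMIs), a larger log2 ratio of 3.32 (3.27 to 3.37). Neutrophils thus held more Cxcl2 per UMI than phagocytes in both libraries, and the difference between the libraries was larger in phagocytes, with intervals that do not overlap. The neutrophil ratio was smaller when the class markers were left out of the denominator (1.95) and with median of ratios scaling (1.76).

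The median AKT1.MYC neutrophil held 28 UMIs of Cxcl2 and the highest 580, against 6 and 99 in NRAS.MYC.ND. With every cell thinned to 1020 UMIs, 94.5% (92.8 to 96.0) of 864 AKT1.MYC neutrophils and 69.0% (62.8 to 74.6) of 251 NRAS.MYC.ND neutrophils had a Cxcl2 UMI. Before thinning the shares were 96.7% and 74.7%. In mononuclear phagocytes thinned to 1391 UMIs the shares were 72.7% (70.6 to 74.8) of 1796 AKT1.MYC cells and 18.3% (16.1 to 20.6) of 1159 NRAS.MYC.ND cells, or 88.6% and 33.4% before thinning. Both more cells with Cxcl2 and more UMIs per cell thus went with AKT1.MYC. In T, NK and ILC cells, which should lack it and had medians of 2866 and 2869 UMIs, 41.9% of AKT1.MYC and 1.99% of NRAS.MYC.ND cells had a Cxcl2 UMI at 1824 UMIs.

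That background differs widely between the libraries, at 331 CPM in AKT1.MYC and 10.5 CPM in NRAS.MYC.ND T, NK and ILC cells. Neutrophils stood 68.8-fold and mononuclear phagocytes 9.25-fold above it in AKT1.MYC, and 444-fold and 29.3-fold in NRAS.MYC.ND. The AKT1.MYC levels in endothelial cells (310.4 CPM), fibroblasts and pericytes (478), the hepatocyte lineage (286) and duct-like epithelial cells (254) were 0.768-fold to 1.44-fold of that background. The corresponding NRAS.MYC.ND levels were 18.7, 8.86, 54.3 and 70.2 CPM. Ratios in those classes, 4.05 in endothelial cells, 5.76 in fibroblasts and 2.40 in the hepatocyte lineage, therefore sit on an AKT1.MYC level that is no higher than in lymphocytes or close to it. With free RNA subtracted, taken as the profile of all kept cells of a library, the neutrophil ratio was 2.19. That profile includes the Cxcl2 of myeloid cells, so the subtraction can take more than a class held. It left -24.5 and -234 UMIs in AKT1.MYC and NRAS.MYC.ND T, NK and ILC cells and -1862 in the AKT1.MYC hepatocyte lineage. Those values therefore say nothing about Cxcl2 in those classes.

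Cxcl2 UMIs of gated cells came mainly from the same myeloid classes in both libraries. Neutrophils held 46.1% of them in AKT1.MYC against 38.9% in NRAS.MYC.ND, and mononuclear phagocytes 40.0% and 50.8%. Duct-like epithelial cells, which numbered 2110 in AKT1.MYC against 40 in NRAS.MYC.ND, held 9.02% and 0.668%. These shares follow cell numbers as well as levels. An erythroid gate of 135 AKT1.MYC and 101 NRAS.MYC.ND cells also showed 1520.4 and 67.4 CPM, but free RNA markers there stood at 61.3% and 23.1% of the library profile.

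**Figure D2:**
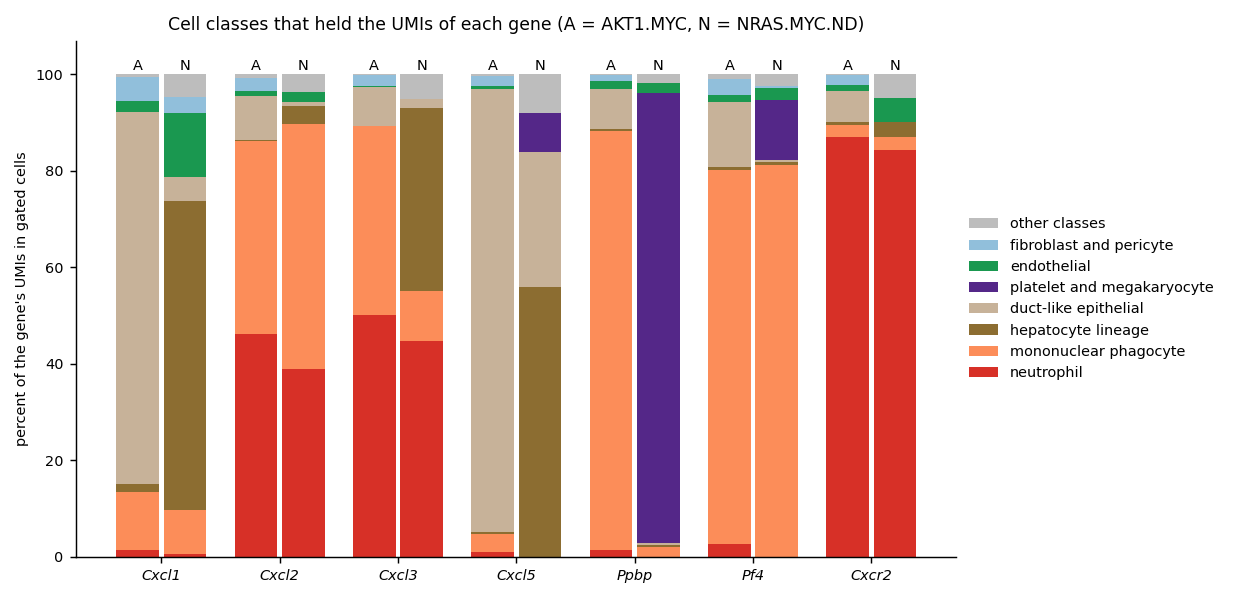
Share of the UMIs of each gene that lies in each marker-gated class, in percent of the UMIs in gated cells, with AKT1.MYC left of NRAS.MYC.ND. Cxcl2 splits between neutrophils and mononuclear phagocytes in both libraries, while Cxcl1 lies in duct-like epithelial cells in AKT1.MYC (77.1%) and in the hepatocyte lineage in NRAS.MYC.ND (64.1%).

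Cxcl2 was also higher in AKT1.MYC within each subset that both libraries held. Mature neutrophils (451 and 87 cells) stood at 29455 and 10010.4 CPM, a log2 ratio of 1.56, and immature neutrophils (190 and 98 cells) at 12593 and 2421 CPM, a ratio of 2.38. In both libraries the mature cells were thus the higher of the pair. The mature subset was gated on Csf3r, Il1r2, Ccrl2, Cd14, Il1b, Acod1 and Ptgs2. Of these, Cd14 was close to Cxcl2 in its pattern over cell classes (correlation 0.93). The order of the pair is therefore not independent of the gate, and the part of maturity in it was not tested. Kupffer cells, the resident liver macrophages, stood at 1321 and 156 CPM (100 and 231 cells, ratio 3.08) and macrophages with C1q and Trem2 at 3222 and 367 CPM (612 and 421 cells, 3.13). Monocytes stood at 2069 and 448 CPM (201 and 264 cells, 2.21). A monocyte-macrophage subset marked by Arg1 and Thbs1 had 427 cells in AKT1.MYC, with Cxcl2 at 3475 CPM, and 1 cell in NRAS.MYC.ND, so it has no ratio.

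Cxcl3, the nearest relative of Cxcl2, followed it at a lower level. Neutrophils held 353 CPM (633 UMIs) in AKT1.MYC and 46.1 CPM (26 UMIs) in NRAS.MYC.ND, a log2 ratio of 2.94 (2.37 to 3.56). Mononuclear phagocytes held 43.0 CPM (498 UMIs) and 0.537 CPM (6 UMIs), a ratio of 6.32 (5.19 to 7.78). In AKT1.MYC T, NK and ILC cells Cxcl3 had 0 UMIs, and the neutrophil level was at least 44.4-fold and the phagocyte level at least 5.41-fold above the limit that 3 UMIs there would set. In NRAS.MYC.ND the phagocyte level was 1.33-fold that of T, NK and ILC cells (0.402 CPM, 2 UMIs), which is background. Cxcl3 was thus well above background in neutrophils of both libraries and, among phagocytes, in AKT1.MYC.

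Few cells carried Cxcl3. It was seen in 151 of 978 AKT1.MYC and 13 of 261 NRAS.MYC.ND neutrophils, and all of these also held Cxcl2, which 946 and 195 neutrophils did. Among AKT1.MYC phagocytes 110 of 2098 cells had it, 103 of them with Cxcl2, and in NRAS.MYC.ND 5 of 1185. Within AKT1.MYC phagocytes, 86.7% of its UMIs lay in the Arg1 and Thbs1 subset (158 CPM, 58 of 427 cells), against 7.91 CPM in C1q and Trem2 macrophages, 6.06 CPM in monocytes and 0 UMIs in 100 Kupffer cells. The phagocyte difference in Cxcl3 therefore lies mostly in a subset that NRAS.MYC.ND held as 1 cell. In C1q and Trem2 macrophages NRAS.MYC.ND had 0.767 CPM (3 UMIs). In neutrophils it was higher in AKT1.MYC in immature cells (447 and 34.6 CPM, ratio 3.69) and in mature cells (322 and 76.4 CPM, 2.07). In the hepatocyte lineage AKT1.MYC had 0 UMIs and NRAS.MYC.ND 22 UMIs in 10 of 512 cells, 9 of them in 1 cell.

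**Figure D3:**
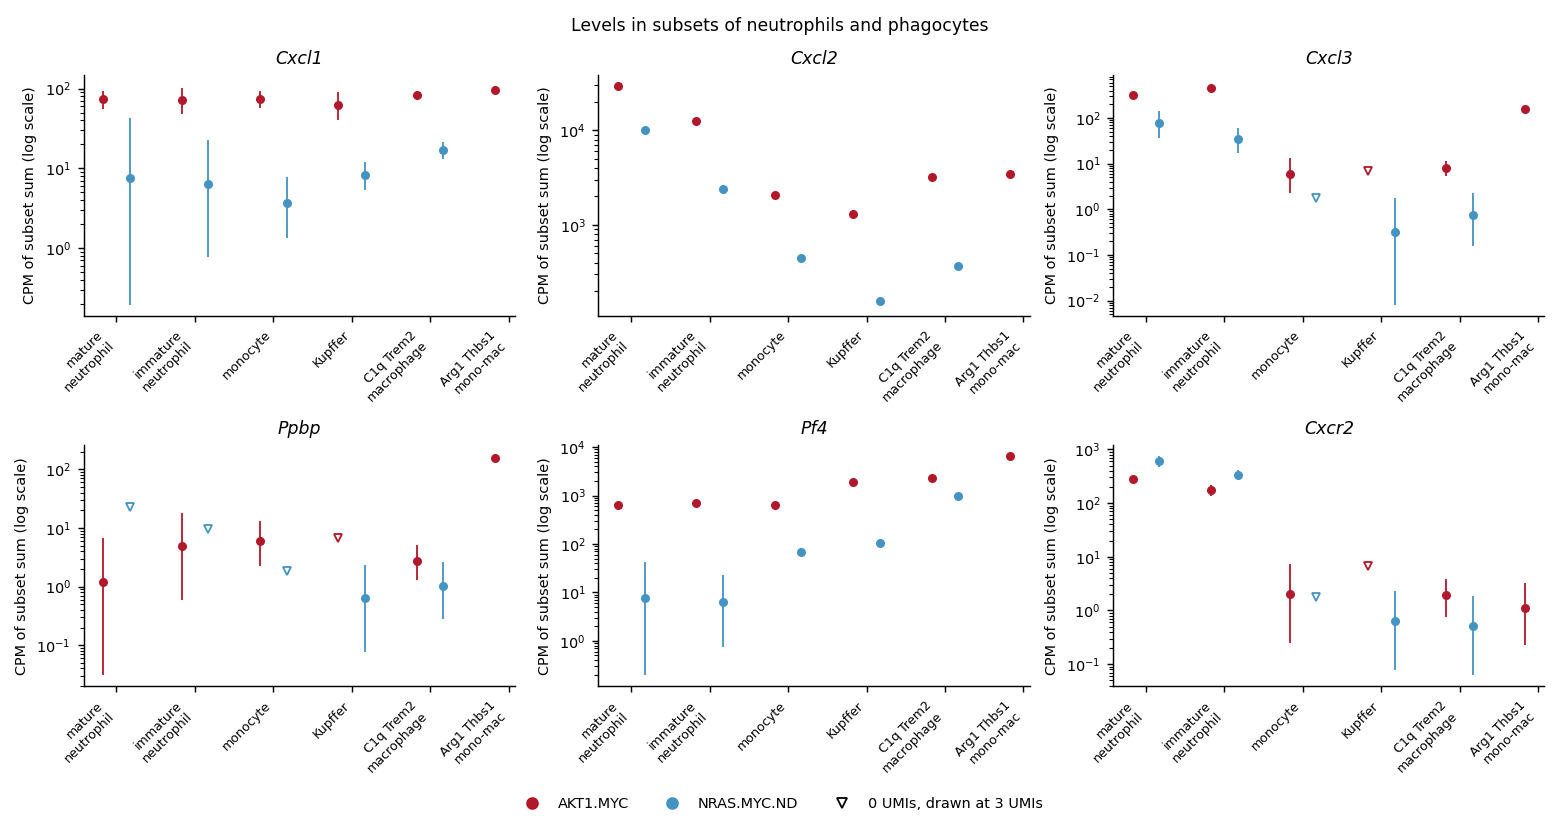
Level of 6 of the genes (all but Cxcl5) in subsets of neutrophils and mononuclear phagocytes, in CPM on a log axis, with AKT1.MYC left of NRAS.MYC.ND. Points are 1 library each with exact 95% Poisson intervals, and open triangles mark 0 UMIs at the limit of 3 UMIs. Cxcl3 and Ppbp stand apart in the Arg1 and Thbs1 subset of AKT1.MYC (158 and 153 CPM), and Cxcr2 is lower in AKT1.MYC in mature (277 and 603 CPM) and immature neutrophils (175 and 337 CPM).

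Cxcl1, a CXCR2 ligand of epithelial and stromal as well as myeloid cells, differed between the libraries in level and in where it lay. Over all kept cells it stood at 167 CPM (10054 UMIs) in AKT1.MYC and 41.1 CPM (1561 UMIs) in NRAS.MYC.ND, a log2 ratio of 2.02 (1.94 to 2.10). Of the UMIs in gated cells, duct-like epithelial cells held 77.1% in AKT1.MYC against 5.09% in NRAS.MYC.ND, while the hepatocyte lineage held 1.68% and 64.1%. The main epithelial source was thus duct-like in AKT1.MYC and hepatocyte-lineage in NRAS.MYC.ND, in libraries with 2110 and 40 duct-like cells and 177 and 512 hepatocyte-lineage cells. Duct-like cells stood at 225 CPM in AKT1.MYC, 7.73-fold above T, NK and ILC cells, and at 116 CPM in NRAS.MYC.ND, where 63 of their 74 UMIs came from 1 of the 40 cells.

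Among the 2110 AKT1.MYC duct-like cells, 935 had a Cxcl1 UMI and the 211 cells with the most held 75.7% of the UMIs. Cells with Cxcl1 had a median of 22846 UMIs and the others 2238, so detection moved with depth. Thinned to 706 UMIs, 10.7% (9.30 to 12.1) had it, against 44.3% before thinning. Hepatocyte-lineage cells numbered 177 in AKT1.MYC against 512 in NRAS.MYC.ND, and Cxcl1 in them stood at 129 CPM (155 UMIs) and 197 CPM (933 UMIs), a log2 ratio of -0.61 (-0.86 to -0.36). The AKT1.MYC gate is weak: its hepatocyte markers stood at 25201 CPM against 62982 CPM in NRAS.MYC.ND, duct-like markers at 9412 against 4791 CPM, and markers it should lack at 108% of the library profile, against 21.0%. The sign turned with cells assigned by clusters (0.17), and the thinned shares of 8.02% and 8.51% differed by less than their intervals. In NRAS.MYC.ND, Cxcl1 in the hepatocyte lineage was 24.5-fold above T, NK and ILC cells.

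In mononuclear phagocytes Cxcl1 stood at 95.8 CPM (1109 UMIs) in AKT1.MYC and 11.9 CPM (133 UMIs) in NRAS.MYC.ND, a log2 ratio of 3.01 (2.75 to 3.28). That was 3.28-fold above T, NK and ILC cells in AKT1.MYC against 1.48-fold in NRAS.MYC.ND, so the lower of the pair is close to background. Kupffer cells (61.6 and 8.27 CPM), C1q and Trem2 macrophages (81.9 and 16.9 CPM) and monocytes (73.7 and 3.62 CPM) all had the higher value in AKT1.MYC. Neutrophils stood at 72.4 CPM (130 UMIs) and 12.4 CPM (7 UMIs), a ratio of 2.54 (1.46 to 3.89). These levels were 2.48-fold and 1.54-fold those of T, NK and ILC cells. After free RNA was subtracted, 28.6 of the 130 AKT1.MYC UMIs were left in neutrophils, and no NRAS.MYC.ND signal. Endothelial cells stood at 66.7 and 24.4 CPM, a ratio of 1.45 (1.16 to 1.74). Fibroblasts and pericytes (852 and 56 cells) stood at 96.3 and 70.9 CPM, a ratio of 0.44 (0.01 to 0.90) that was -0.10 with free RNA subtracted and 1.16 with upper quartile scaling.

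Cxcl5, an epithelial CXCR2 ligand, was scarce outside AKT1.MYC duct-like cells. Over all kept cells AKT1.MYC had 1310 UMIs (21.7 CPM) and NRAS.MYC.ND 28 UMIs (0.737 CPM), a log2 ratio of 4.88 (4.34 to 5.48). In AKT1.MYC 91.7% of the UMIs in gated cells were in duct-like cells, and in NRAS.MYC.ND the 14 UMIs of the hepatocyte lineage and the 7 of duct-like cells made up most of the 25. Duct-like cells numbered 2110 in AKT1.MYC against 40 in NRAS.MYC.ND, too few for a ratio. Their levels were 36.6 CPM (34.5 to 38.8) and 10.9 CPM (4.39 to 22.5, from 7 UMIs). The unthinned shares of duct-like cells with Cxcl5 were alike, 341 of 2110 (16.2%) in AKT1.MYC and 7 of 40 (17.5%) in NRAS.MYC.ND. The median depths were 7005 and 12447.5 UMIs. In AKT1.MYC, the 211 cells with the most held 88.7% of its UMIs and 1 cell held 105. There, Cxcl5 was seen in 24.6% of duct-like cells with Cxcl1 and in 9.45% of those without, a difference that depth also separates. In mononuclear phagocytes 48 UMIs in AKT1.MYC against 0 in NRAS.MYC.ND gave a log2 ratio of at least 3.95 against 3 UMIs in NRAS.MYC.ND. At 4.15 CPM that AKT1.MYC level was below the limit of 3 UMIs in T, NK and ILC cells, so it was not separable from background.

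Ppbp, the CXCL7 precursor, had nearly the same level over all kept cells in both libraries, 9.92 CPM (598 UMIs) in AKT1.MYC and 10.6 CPM (403 UMIs) in NRAS.MYC.ND, but lay in different cells. In NRAS.MYC.ND 93.5% of the UMIs in gated cells, 371 UMIs, were in 10 cells gated as platelets and megakaryocytes, a gate that held 0 cells in AKT1.MYC. In AKT1.MYC 86.9% were in mononuclear phagocytes, at 40.7 CPM (471 UMIs) against 0.716 CPM (8 UMIs) in NRAS.MYC.ND phagocytes, a log2 ratio of 5.83 (4.84 to 7.05). Without cells that hold a platelet gene, an alternative added after seeing the data, the ratio was 5.81 (4.82 to 7.03). That alternative could hardly move the ratio. A platelet gene was seen in 1 of the 76 AKT1.MYC and 0 of the 5 NRAS.MYC.ND phagocytes with Ppbp. The NRAS.MYC.ND phagocyte level was 0.712-fold that of its T, NK and ILC cells, and the AKT1.MYC one at least 5.11-fold above the limit of 3 UMIs in its own. In phagocytes Ppbp was therefore above background in AKT1.MYC.

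The AKT1.MYC phagocytes with Ppbp did not carry the other platelet genes at a level to match. Ppbp was in 76 of 2098 AKT1.MYC phagocytes, 63 UMIs in the highest, and 43 of the 76 cells and 88.7% of its UMIs belonged to the Arg1 and Thbs1 subset (153 CPM). Over those 76 cells the 9 platelet markers summed to 1 UMI (1.51 CPM), against 0.550 CPM in phagocytes without Ppbp, and to 6737 CPM in the 9 NRAS.MYC.ND platelet-gate cells with Ppbp. Of the 9 markers, 8 were at 0 over all AKT1.MYC phagocytes and 6 over all NRAS.MYC.ND phagocytes. All 76 cells held Pf4, at 12546 CPM against 2653 CPM in phagocytes without Ppbp, with medians of 7433.5 and 4190 UMIs.

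Pf4 was second to Cxcl2 in abundance and lay in mononuclear phagocytes in both libraries. Phagocytes held 77.5% of its UMIs in gated cells in AKT1.MYC against 81.2% in NRAS.MYC.ND, where the 10 platelet-gate cells held another 12.5% (793 UMIs). Its level in phagocytes was 3219 CPM (37274 UMIs) in AKT1.MYC and 459.6 CPM (5137 UMIs) in NRAS.MYC.ND, a log2 ratio of 2.81 (2.77 to 2.85). The shares of phagocytes with Pf4, thinned to 1391 UMIs, were 76.8% and 27.9%. By subset it stood at 6455 CPM in the Arg1 and Thbs1 cells of AKT1.MYC, which held 47.2% of its phagocyte UMIs. In C1q and Trem2 macrophages it was 2287 and 963 CPM (ratio 1.25), in Kupffer cells 1937 and 103 CPM (4.24) and in monocytes 645 and 68.2 CPM (3.24). The ratio was thus smallest, of these 3 subsets, in the macrophages that had the most Pf4 in NRAS.MYC.ND.

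Outside phagocytes the Pf4 background was again high in AKT1.MYC. T, NK and ILC cells held 382 CPM in AKT1.MYC and 13.3 CPM in NRAS.MYC.ND. AKT1.MYC levels in endothelial cells (221 CPM), fibroblasts and pericytes (332), the hepatocyte lineage (245) and duct-like cells (208) were all below that 382 CPM, and the NRAS.MYC.ND levels there were 20.5, 32.5, 9.94 and 24.98 CPM. Erythroid cells were above the T, NK and ILC level in both libraries, at 1278 CPM (3.35-fold) in AKT1.MYC and 48.3 CPM (3.64-fold) in NRAS.MYC.ND. Free RNA markers in them stood at 61.3% and 23.1% of the library profile, against 23.3% and 28.3% in T, NK and ILC cells. The part of free RNA in this erythroid Pf4 was not tested. Neutrophils stood at 688 CPM, 1.80-fold the T, NK and ILC level, in AKT1.MYC and at 5.32 CPM (3 UMIs) in NRAS.MYC.ND, a log2 ratio of 7.02 (5.46 to 9.29). Phagocyte markers in AKT1.MYC neutrophils summed to 4377 CPM. The part of free RNA in this neutrophil value was not tested.

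Cxcr2, the receptor, lay in neutrophils and was lower in AKT1.MYC. Neutrophils held 87.0% of its UMIs in gated cells in AKT1.MYC against 84.4% in NRAS.MYC.ND. Their level was 245 CPM (440 UMIs) in AKT1.MYC and 452 CPM (255 UMIs) in NRAS.MYC.ND, a log2 ratio of -0.88 (-1.11 to -0.66) where the median gene was at 0.55. With median of ratios scaling the value was -1.42, and without class markers in the denominator -1.23. Over 11 alternatives it ran from -1.42 to -0.69, the smaller size being that with upper quartile scaling. The receptor ratio was thus opposite in sign to those of Cxcl2 and Cxcl3 in the same gate. It was also opposite to that of Cxcl1, most of which was removed there when free RNA was subtracted. Other markers differed there too: neutrophil markers stood at 63491 CPM in AKT1.MYC and 261999 CPM in NRAS.MYC.ND, phagocyte markers at 4377 and 1483 CPM and duct-like markers at 3604 and 287 CPM, and their part in the Cxcr2 ratio was not tested. Over all kept cells Cxcr2 was nearly equal, at 9.11 and 8.47 CPM in a library with 978 and a library with 261 neutrophils.

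At 1020 UMIs a cell, 21.8% (19.2 to 24.8) of AKT1.MYC and 39.5% (33.4 to 45.8) of NRAS.MYC.ND neutrophils had a Cxcr2 UMI, and 31.9% and 55.9% before thinning. In T, NK and ILC cells the unthinned shares were 0.885% and 0.210%. The difference held in mature neutrophils, at 277 and 603 CPM (ratio -1.12, -1.50 to -0.74), in immature neutrophils, at 175 and 337 CPM (-0.94, -1.40 to -0.50), and in neutrophils in neither subset, at 248 and 598 CPM. Within each library, Cxcr2 was higher in mature than in immature neutrophils. Cells with and without Cxcr2 carried Cxcl2 alike: 97.1% and 96.5% of them in AKT1.MYC, and 74.0% and 75.7% in NRAS.MYC.ND. Outside neutrophils no compared class exceeded 6.35 CPM. The 10 cells of the NRAS.MYC.ND mast cell and basophil gate held 160.3 CPM (4 UMIs).

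Of 8 other attractant receptors measured in neutrophils, 1 was at least 2-fold higher in AKT1.MYC, 4 at least 2-fold lower and 3 neither, with a median log2 ratio of -0.86, against 0.55 for all genes. Of all genes measured, 35.1% were as much higher and 8.54% as much lower in neutrophils, and 15.8% and 9.76% in phagocytes. The list counts below are to be read beside these shares. With median of ratios scaling the counts were 1 and 6, and with upper quartile scaling 2 and 2. The formyl peptide receptor Fpr2 stood at 91.9 and 287 CPM (-1.64), the leukotriene B4 receptor Ltb4r1 at 44.6 and 121 CPM (-1.44) and the complement C5a receptor C5ar1 at 441 and 906 CPM (-1.04). Ccrl2, a receptor that binds chemerin without signalling, stood at 2589.8 and 594 CPM (2.12). In phagocytes the median was 0.41, with Ccrl2 higher (410.0 and 166 CPM, 1.31), Fpr2 lower (8.81 and 30.7 CPM, -1.80) and the other 6 within 2-fold.

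Adhesion genes of neutrophils were split. Of 9 measured, 2 were higher and 5 lower, with a median of -1.03 (1 and 7 with median of ratios scaling). Of all genes in neutrophils 35.1% were higher and 8.54% lower, with a median of 0.55. Itgal, the LFA-1 subunit, stood at 58.5 CPM in AKT1.MYC and 195 CPM in NRAS.MYC.ND (-1.74) and Selp, P-selectin, at 4.46 and 16.0 CPM (-1.84; 8 and 9 UMIs). Icam1, the ligand of LFA-1 and an NF-κB target, stood at 243 and 60.3 CPM (2.01). In phagocytes 2 of 11 were higher, among them Itgam, the Mac-1 subunit (163 and 50.3 CPM, 1.70), and 3 lower, among them Itgal (40.6 and 126 CPM, -1.63) and Vcam1 (465 and 1132 CPM, -1.28). Itgal was thus lower in AKT1.MYC in both classes.

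Of genes downstream of CXCR2, from G protein subunits to Rac2, 0 of 15 were at least 2-fold higher and 2 lower in AKT1.MYC neutrophils, with a median of -0.62, or 0 and 9 with median of ratios scaling. All genes there were 35.1% higher and 8.54% lower, with a median of 0.55. The lower genes included Prex1, which activates Rac (39.0 and 79.8 CPM, -1.03). In phagocytes 0 were higher and 3 lower, among them Fgr (21.2 and 65.2 CPM, -1.62) and Rac2 (229 and 462 CPM, -1.01), with a median of -0.31 beside 0.08 for all genes.

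The cytokines and receptors that induce CXCR2 ligands included cytokines that were higher in AKT1.MYC, with no common direction in neutrophils. In phagocytes 4 of 12 were at least 2-fold higher and 0 lower (median 0.39): Osm, oncostatin M (139 and 20.8 CPM, 2.74), Il1b, interleukin-1β (1168 and 362 CPM, 1.69), Tnf (110.5 and 47.2 CPM, 1.23) and the receptor Il1r1 (3.28 and 0.447 CPM, 2.87; 38 and 5 UMIs). In neutrophils 3 were higher and 3 lower (median 0.40), where 35.1% of all genes were higher and 8.54% lower (median 0.55). Il1a, interleukin-1α, stood there at 123 CPM (221 UMIs) in AKT1.MYC and 3.55 CPM (2 UMIs) in NRAS.MYC.ND (5.12) and Tnf at 589 and 165 CPM (1.84). The adaptor Myd88 (57.4 and 158 CPM, -1.46) and the interleukin-17 receptor Il17ra (131 and 344 CPM, -1.39) were lower. Il1a was within 2-fold in phagocytes, at 40.6 and 46.6 CPM.

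Among NF-κB factors and their feedback genes, 4 of 12 were higher and 2 lower in AKT1.MYC neutrophils (median 0.39), or 0 and 3 with median of ratios scaling, so those higher calls rest on the scaling. The higher count is also near the share of all genes in neutrophils, of which 35.1% were higher and 8.54% lower (median 0.55). The higher genes included Tnfaip3, which encodes the inhibitor A20 (298 and 115 CPM, 1.37), Rela (89.7 and 37.2 CPM, 1.27) and Nfkb2 (30.1 and 12.4 CPM, 1.28). Zfp36, which shortens the life of cytokine mRNAs, was lower (1024 and 2864 CPM, -1.48). In phagocytes 0 of 12 were 2-fold apart in either direction (median 0.19).

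Of 9 other neutrophil attractants and growth factors measured in neutrophils, 4 were higher and 1 lower (median 0.72), or 3 and 3 with median of ratios scaling. Those counts are near the background of all genes in neutrophils, of which 35.1% were higher and 8.54% lower. Mif, which also binds CXCR2, stood at 641 and 65.6 CPM (3.29), the chemokine Ccl3 at 2588 and 646 CPM (2.00) and Cxcl12, which holds neutrophils in the marrow, at 19.5 and 5.32 CPM (1.87; 35 and 3 UMIs). Lta4h, which makes leukotriene B4, was lower (34.0 and 103 CPM, -1.60). In phagocytes 4 of 10 were higher and 0 lower (median 0.88): Mif (553 and 196 CPM, 1.49), Cxcl12 (9.07 and 2.86 CPM, 1.66), Alox5, which starts leukotriene synthesis (4.06 and 1.52 CPM, 1.42), and Csf3, the granulocyte growth factor (13 UMIs and 0 UMIs, at least 2.06). Among platelet genes 2 of 12 were measured in neutrophils and 4 in phagocytes. Clu, clusterin, which liver epithelium also makes, was higher in both classes (2070.0 and 340.5 CPM, 2.60; 1152 and 206 CPM, 2.49), and Nrgn was lower in phagocytes (1 and 11 UMIs, -3.51).

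Of 14 genes that respond quickly to tissue dissociation, 4 were at least 2-fold higher and 0 lower in AKT1.MYC phagocytes and 10 neither (median 0.82), or 8 higher with equal weight per cell. Of all genes in phagocytes 15.8% were as much higher and 9.76% as much lower. The 4 were Ier3 (1169 and 160.0 CPM, 2.87), Socs3 (521 and 133 CPM, 1.97), Hspa1b (83.4 and 24.5 CPM, 1.77) and Atf3 (2144 and 687 CPM, 1.64). In neutrophils 4 were higher and 2 lower (median 0.02), with Ier3 at 3006 and 607 CPM (2.31), the heat shock genes Hspa1a at 173 and 31.9 CPM (2.44) and Hspa1b at 45.1 and 1.77 CPM (4.67; 81 and 1 UMIs), and Zfp36 lower. Ier3 was thus higher in AKT1.MYC in both classes where Cxcl2 was. The part of dissociation in the Cxcl2 ratios was not tested.

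**Figure D4:**
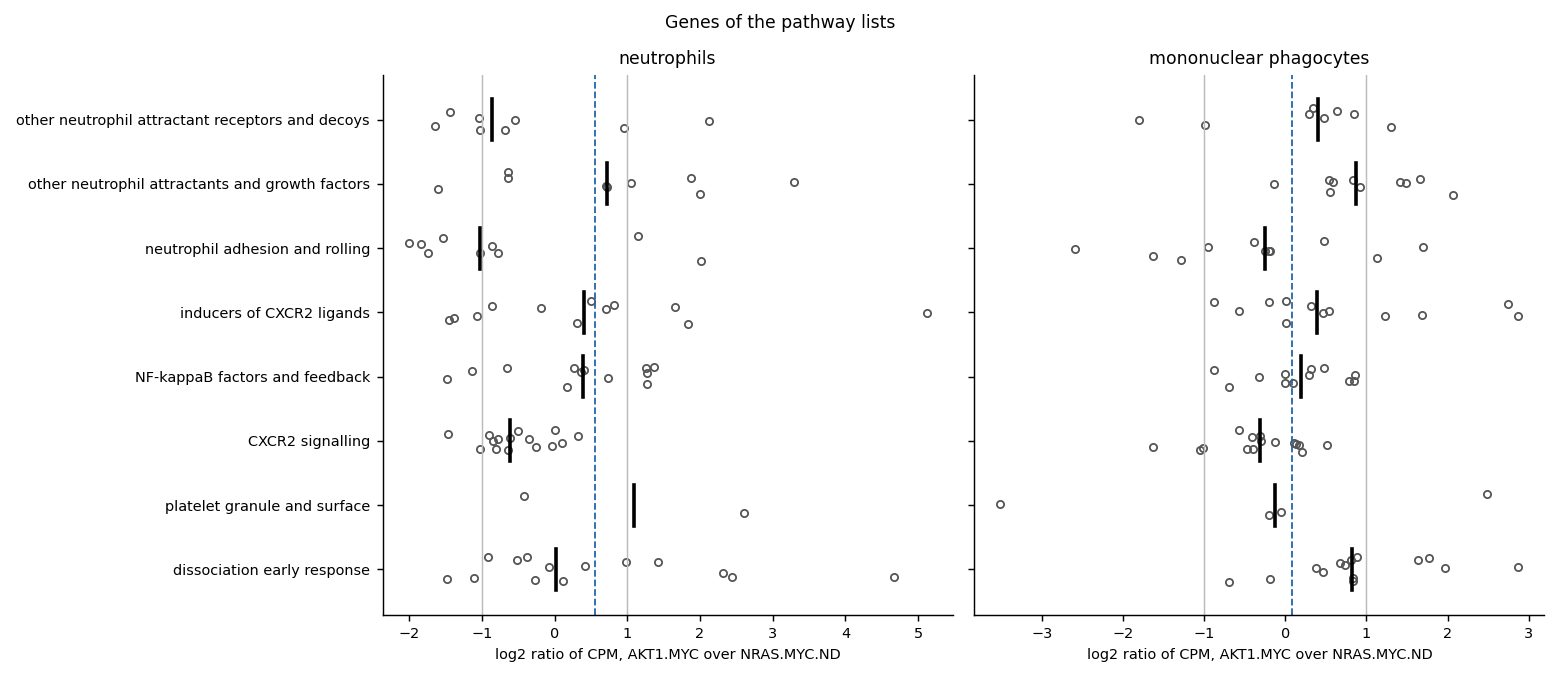
Log2 ratio of AKT1.MYC over NRAS.MYC.ND for each measured gene of the 8 lists, in neutrophils and mononuclear phagocytes. Dots are genes, black bars list medians, the dashed blue line the median of all genes in the class (0.55 and 0.08), and grey lines 2-fold in either direction. In neutrophils the attractant receptor, adhesion and CXCR2 signalling lists have medians of -0.86, -1.03 and -0.62, below the median of all genes.

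Patterns over cell types were compared as the Pearson correlation of log2(CPM + 1) over the 18 class-by-library points with at least 50 cells, which share libraries, depth and free RNA. Cxcl2 was nearest to Clec4d (0.94), Cd14 (0.93) and Arg2 (0.93), and Cxcl3 to Gm37498 (0.90), Trem1 (0.89) and Mmp9 (0.88), which is itself a marker of the neutrophil gate. Cxcl1 was nearest to the metallothioneins Mt1 (0.93) and Mt2 (0.92) and to Tnfrsf12a (0.90). Cxcl5 was nearest to Apol7d (0.96), Gm12320 (0.94) and Cd164l2 (0.94). Pf4 was nearest to Trem2 (0.94), Fcrls (0.93) and Cbr2 (0.91), all known from macrophages, and Trem2 served to define a subset. Ppbp had weaker likeness, to Gm38335 (0.78), Ms4a4a (0.76) and Dpep2 (0.73). Cxcr2 was nearest to Il1f9 (0.96), Gm20406 (0.95) and Stfa2 (0.94). Among the 7 genes themselves the highest correlation was that of Cxcl2 with Cxcl3 (0.86), followed by Cxcl3 with Cxcr2 and Cxcl1 with Cxcl5 (0.69 each), and Cxcl1 and Cxcr2 stood at -0.09.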

How the data were processed

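Single cells of 1 tumour library per group were measured, and each deposited matrix holds raw UMI counts per gene and barcode, which the authors made with Cell Ranger. Per the submitters' processing notes the build was mm10 and the version 6.1.2, while the file header names 6.1.1. The sources used here do not give the annotation release. No sample column of another series was present.

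Barcodes needed 500 UMIs or more, 250 genes or more and a mitochondrial share of 20% or less, which removed 456 of 10766 AKT1.MYC and 351 of 6312 NRAS.MYC.ND barcodes. The doublet threshold of Scrublet in scanpy 1.11.5 marked 0% of cells and so failed, and the highest scores up to 0.8% per 1000 barcodes were removed in its place (912 AKT1.MYC and 327 NRAS.MYC.ND cells). This left 60289874 AKT1.MYC and 38004526 NRAS.MYC.ND UMIs. Of 156 markers, 154 were in the files. A cell was gated to the class whose marker score led the next by 0.25 with at least 3 markers seen, a scoring rule chosen after seeing the data. Counts were summed per class and expressed as CPM, with exact Poisson intervals, exact conditional binomial intervals for ratios and Clopper-Pearson intervals for shares, all at 95% and for counting error only. Thinned shares are the expected shares when every cell is drawn down to the 10th percentile of its class. A value of 0 was given the limit of 3 UMIs. A gene was measured at 10 or more UMIs over both libraries and called at 2-fold.

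The 7 genes, the markers and the 100 genes of 8 lists were chosen with earlier results of these data known. List genes are named at 2-fold or more with an interval excluding 0, at most 4 per list and class, with some list genes counted but not reported by name here, and likeness is named for the 3 highest correlations among genes with at least 100 UMIs. The alternatives covered gating, filters, doublets, weighting, thinning, free RNA and scaling. Leaving class markers out of the denominator, and leaving out cells with a platelet gene, are alternatives chosen after seeing the data. Simulated counts were used to test the computation of ratios and intervals. Python 3.11.15, numpy 2.4.6, scipy 1.17.1, pandas 2.3.3 and matplotlib 3.10.9 were used.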

Additional observations from a re-analysis of the deposited data

Results flagged for a closer look

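Cxcl1 differed in opposite directions between the libraries in mononuclear phagocytes, with a log2 ratio of 3.01, and in the hepatocyte lineage, with -0.61. The difference between these ratios was not tested, because each group is 1 library, and the sign in the hepatocyte lineage turned when cells were assigned by clusters.

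Cells that no marker gate took also carried the ligands in AKT1.MYC. Cxcl1 stood at 162 CPM in ungated AKT1.MYC cells and 34.6 CPM in ungated NRAS.MYC.ND cells, Cxcl2 at 2618 and 327 CPM, and Pf4 at 1203 and 109 CPM. These ungated cells had medians of 940 and 3182 UMIs.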

How the results depend on the processing

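No paired analysis was possible because each group is 1 library. Of 151 recomputed log2 ratios 117 stayed within their counting interval, 32 moved beyond it and 2 turned sign. Of 81 shares 60 stayed and 21 moved, and of 180 list counts 160 stayed within 1.5 times and 20 moved. The causes of these shifts were not tested, beyond what each alternative changes by construction.

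With cells assigned by Leiden clusters, the log2 ratio of Cxcl1 in the hepatocyte lineage was 0.17 and that of Pf4 in phagocytes 2.87. Duct-like cells then held 75.8% of AKT1.MYC Cxcl1, neutrophils 44.1% of AKT1.MYC Cxcl2 and the platelet gate 64.3% of NRAS.MYC.ND Ppbp, and 69.6% of AKT1.MYC and 15.2% of NRAS.MYC.ND phagocytes had Cxcl2. With the stricter gate the Cxcl1 hepatocyte ratio was -0.97 and the Cxcl2 neutrophil ratio 2.52, the Cxcl1 and Cxcl2 shares 77.9% and 48.1%, and the phagocyte shares with Cxcl2 76.5% and 21.1%. The counts were then 1 inducer lower in phagocytes, and 2 attractant receptors higher and 2 lower in neutrophils. At 1000 UMIs or more, the Cxcl1 and Cxcl2 shares were 78.3% and 45.7%, AKT1.MYC phagocytes with Cxcl2 75.7%, AKT1.MYC neutrophils with Cxcr2 26.3%, and 2 attractant receptors were higher in neutrophils. Without doublet removal, the Cxcl2 neutrophil ratio was 2.42 and its share 44.9%, AKT1.MYC neutrophils with Cxcr2 18.7%, 1 CXCR2 signalling gene lower, and 2 attractant receptors higher and 2 lower.

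Cxcl2 in neutrophils and in phagocytes and Pf4 in phagocytes had log2 ratios of 2.00, 3.25 and 2.53 with equal weight per cell, 2.08, 3.27 and 2.64 in thinned cells, 1.76, 3.25 and 2.73 with median of ratios scaling, and 2.49, 3.42 and 2.91 with upper quartile scaling. With equal weight 8 early response genes were higher in phagocytes. Median of ratios scaling gave -1.42 for Cxcr2 in neutrophils and 9 CXCR2 signalling genes lower. Upper quartile scaling gave -1.07 for Cxcl1 in the hepatocyte lineage and -0.69 for Cxcr2 in neutrophils. It also gave 1 CXCR2 signalling gene lower, and 2 attractant receptors higher and 2 lower. With free RNA subtracted, Cxcl2 in neutrophils was 2.19, Pf4 in phagocytes 2.85 and Cxcl1 in fibroblasts -0.10. That subtraction left no value to compare for Cxcl1 in neutrophils and the hepatocyte lineage, Cxcl2 in T, NK and ILC cells and the hepatocyte lineage, and Ppbp in phagocytes. Without class markers in the denominator, Cxcl2 and Cxcr2 in neutrophils were 1.95 and -1.23. Without thinning, 88.6% of AKT1.MYC and 33.4% of NRAS.MYC.ND phagocytes had Cxcl2, 96.7% and 74.7% of neutrophils had Cxcl2, and 31.9% and 55.9% had Cxcr2.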
